A study of Mus musculus with 6 samples.

Results

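The CCN genes encode a family of secreted matricellular proteins, which sit in the extracellular matrix and pass signals to cells rather than bearing load. The members described here are Ccn1 (formerly Cyr61), Ccn2 (Ctgf), Ccn3 (Nov), Ccn4 (Wisp1) and Ccn5 (Wisp2), 5 of the 55401 genes in the deposited table, found by their symbols. They were measured by bulk RNA-seq in CAFs (cancer-associated fibroblasts, the stromal cells that lay down tumour matrix) grown on fibronectin in medium with serum after isolation from tumours that mouse tumour organoids had formed in the rectum. The host mice were either WT or Thbs2KO, the latter a knockout of the gene for the matricellular glycoprotein thrombospondin-2, with 3 libraries for each genotype. Age, sex and strain of the hosts, the allele and any genotype of the organoids were not stated in those labels, and nothing in the labels says whether replicates are separate mice or separate cultures of the same cells. Where a p-value is given, it therefore sets a difference against library-to-library spread that may be technical. The family was taken up with its levels in WT and Thbs2KO libraries already known, so no p-value is given for its difference between the genotypes, and where a member is among the genes called by the fit over all genes, that is a description and no support.

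CCN proteins are built from a chain of small cysteine-rich modules: an IGF-binding-protein-like module, a von Willebrand factor type C module, a thrombospondin type 1 repeat and, in most members, a C-terminal cystine knot. They act mainly through integrins and heparan sulfate proteoglycans and by binding growth factors. Ccn1 and Ccn2 are textbook targets of the mechanosensitive co-activators YAP and TAZ with TEAD factors, and Ccn2 is also induced by TGF-beta and is widely used as a marker of fibrotic fibroblasts. Ccn4 was described as a Wnt-induced gene, Ccn3 often opposes Ccn2, and Ccn5 lacks the C-terminal module and is regarded as a restraint on fibrosis.

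Coding exons and cysteine codons were counted in the gene models, where the modules themselves were not annotated. In GENCODE M21, Ccn1, Ccn2, Ccn3 and Ccn4 each had 5 coding exons and encoded 379, 348, 354 and 367 codons, while Ccn5 had 4 coding exons and 251 codons. Coding exons 2, 3 and 4 held 12, 10 and 6 cysteine codons (TGT or TGC in frame) in every member, although their lengths differed, for example 345 bases in Ccn1 and 252 bases in Ccn2 for exon 3. Coding exon 5 held 10 cysteine codons in the 4 members that have it. The further family gene Ccn6 departed from this, with 14, 6, 6 and 10 cysteine codons in coding exons 2, 3, 4 and 5. Between members, 61.7% to 67.2% of aligned coding bases were identical.

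**Figure D1:**
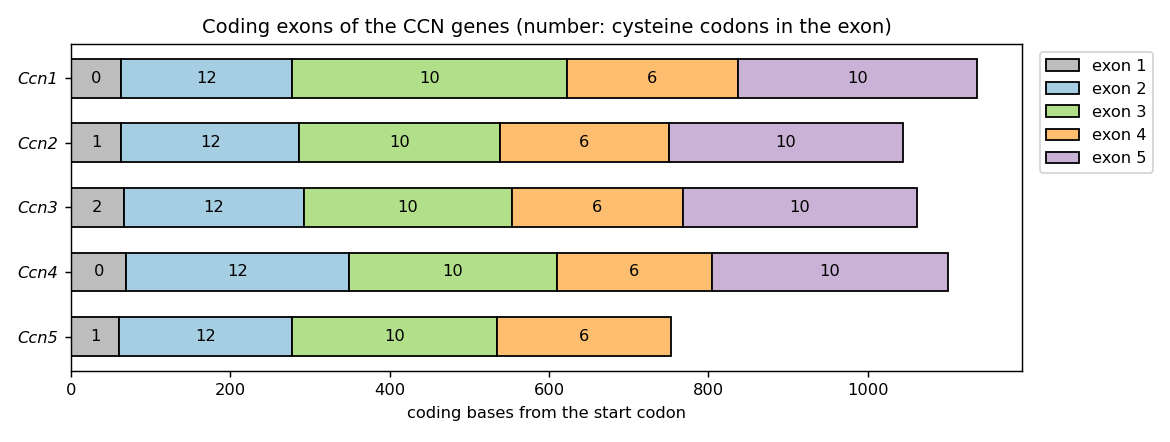
Coding exons of the CCN genes, drawn to scale in coding bases from the start codon, with the number of cysteine codons written in each exon. Exons 2, 3 and 4 hold 12, 10 and 6 cysteine codons in all 5 genes, and Ccn5 ends where the others continue into exon 5 with 10.

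The signature of the IGF-binding module is shown because all members share it. It reads glycine, cysteine, any, cysteine, cysteine, any, any, cysteine. In the coding strand of the GENCODE M21 transcripts, it lay in coding exon 2 of each member, and the capitals mark the codons that the signature fixes.
Ccn1: GGCTGCggcTGCTGTaaggtcTGC
Ccn2: GGCTGCggcTGCTGCcgcgtcTGC
Ccn3: GGCTGCtccTGCTGTccggtgTGC
Ccn4: GGCTGTgaaTGCTGTaagataTGT
Ccn5: GGCTGTggcTGCTGTcgagtgTGT
The stretch covered codons 49 to 56 in Ccn1 and Ccn5, 52 to 59 in Ccn2, 54 to 61 in Ccn3 and 72 to 79 in Ccn4. Of 21562 protein-coding genes searched, 22 encoded such a stretch (0.102%), among them all 6 CCN genes and 5 genes of IGF-binding proteins.

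The genes lie apart in the mm10 genome, except that Ccn3 and Ccn4 share a chromosome. Ccn1 (ENSMUSG00000028195.4) is on chromosome 3 from 145646976 to 145649981 on the minus strand. Ccn2 (ENSMUSG00000019997.11) is on chromosome 10 from 24595442 to 24598683 and Ccn5 (ENSMUSG00000027656.7) on chromosome 2 from 163820861 to 163833146, both on the plus strand. Ccn3 (ENSMUSG00000037362.8) and Ccn4 (ENSMUSG00000005124.10) are on the plus strand of chromosome 15, from 54745702 to 54754039 and from 66891320 to 66923201. Exons of Gm15270, a gene on the opposite strand, overlap those of Ccn2, and the library kit does not mark strand. Gm15270 held 56 reads over the WT libraries and 21 over the Thbs2KO libraries, against 119400 and 36350 for Ccn2.

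The libraries held 19649100 to 24417500 expected counts, and 13590 genes had enough reads to be tested. Thbs2 itself fell from 3399 ± 957 to 458.3 ± 69.5 CPM (read counts scaled to library size, with libraries balanced by TMM; SD, n = 3), in the direction of the labels (edgeR, Benjamini-Hochberg adjusted p = 0.00521; two-sided exact permutation p = 0.1, the smallest that 3 against 3 libraries allow). Thbs2KO replicates 1 and 2 were much more alike than any other pair of libraries: their chi-square over genes was 3.72 per degree of freedom, where the other pairs had 14.6 to 113. WT replicate 1 and Thbs2KO replicate 3 stood apart on the second principal component, at 44.9 and 16.3 where the others had -22.1 to -4.18. All 8 fibroblast markers were above 1 CPM on average, with a summed level of 28167 to 31039 CPM in WT and 27312 to 39009 CPM in Thbs2KO. The immune markers summed to 1.71 to 3.69 CPM, and Ptprc, the pan-leukocyte gene, averaged 0.0434 CPM. The epithelial markers summed to 19.8 to 26.2 CPM in WT and 7.19 to 9.53 CPM in Thbs2KO, with 4 of 8 above 1 CPM on average and Krt19 at 8.97 CPM. The endothelial markers summed to 11.7 to 31.9 and 31.4 to 50.5 CPM through Kdr and Tek, while Cldn5 was at 0 and Pecam1 averaged 0.195 CPM. Mesothelial markers summed to 10.5 CPM and glial markers to 2.15 CPM at most. The pericyte and smooth muscle markers, 7 of 8 above 1 CPM, summed to 111.4, 450.7 and 228.7 CPM in WT replicates 1, 2 and 3 and to 208.1 to 309.7 CPM in Thbs2KO. The part of these other cell types in the CCN values was not tested.

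Ccn2 and Ccn5 were lower in Thbs2KO CAFs by about the same proportion, to 34.4% and 29.97% of their WT means. Ccn1 and Ccn4 stood at 73.9% and 75.3% of WT, and Ccn3 at 112.2%. In a bulk library, fewer cells that express a gene and less RNA per cell cannot be told apart.

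Ccn2, the connective tissue growth factor, measured 1215, 1777 and 2121 CPM in WT replicates 1, 2 and 3 and 537.4, 571.7 and 650.3 CPM in Thbs2KO replicates 1, 2 and 3. Every Thbs2KO library was below every WT library, and WT replicate 1 was the nearest to them. The means were 1704 ± 458 and 586.5 ± 57.9 CPM (SD, n = 3), which put Thbs2KO 2.91-fold lower (log2 fold change -1.54, standard error 0.21). The spread lay mostly within WT, where the coefficient of variation (SD over mean) was 26.9% against 9.87% in Thbs2KO.

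Ccn5, the short member without the cystine knot, measured 46.5, 69.1 and 44.1 CPM in WT and 16.0, 16.1 and 15.8 CPM in Thbs2KO. The groups were far apart and the Thbs2KO libraries almost equal. The log2 fold change was -1.74 with a standard error of 0.18, or 3.34-fold lower, on 3710 reads in WT and 990 reads in Thbs2KO in all.

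Ccn1, the matricellular angiogenic inducer formerly called Cyr61, measured 624.8, 815.0 and 789.5 CPM in WT and 609.5, 602.0 and 437.0 CPM in Thbs2KO. The groups did not overlap, but WT replicate 1 lay only just above Thbs2KO replicates 1 and 2. The log2 fold change was -0.44 with a standard error of 0.17, and the distance between the means, 743.1 and 549.5 CPM, was less than the sum of the SDs, 103.2 and 97.5 CPM. Thbs2KO replicate 3 was the lowest library for Ccn1 and the highest of its group for Ccn2. Ccn1 and Ccn2 thus did not move in parallel there, but this rests on 1 library, as Thbs2KO replicates 1 and 2 were nearly alike. In WT, replicate 1 was the lowest library for both.

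Ccn4, known as Wnt1-inducible signalling protein 1, measured 205.6, 338.8 and 343.2 CPM in WT and 224.5, 221.5 and 222.4 CPM in Thbs2KO. WT replicate 1 lay below all 3 Thbs2KO libraries, so the groups overlapped. The log2 fold change was -0.41 with a standard error of 0.19. Without WT replicate 1 it was -0.61, and the groups did not overlap.

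Ccn3, first known as the nephroblastoma overexpressed gene, measured 14.0, 34.5 and 33.7 CPM in WT and 27.5, 25.3 and 39.4 CPM in Thbs2KO. The groups overlapped, with WT replicate 1 the lowest and Thbs2KO replicate 3 the highest of the 6. The log2 fold change was 0.17 with a standard error of 0.35, and its sign rested on single libraries: it was -0.15 without WT replicate 1 and -0.05 without Thbs2KO replicate 3. Ccn6, the remaining gene of the family, had 0 reads in all libraries.

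**Figure D2:**
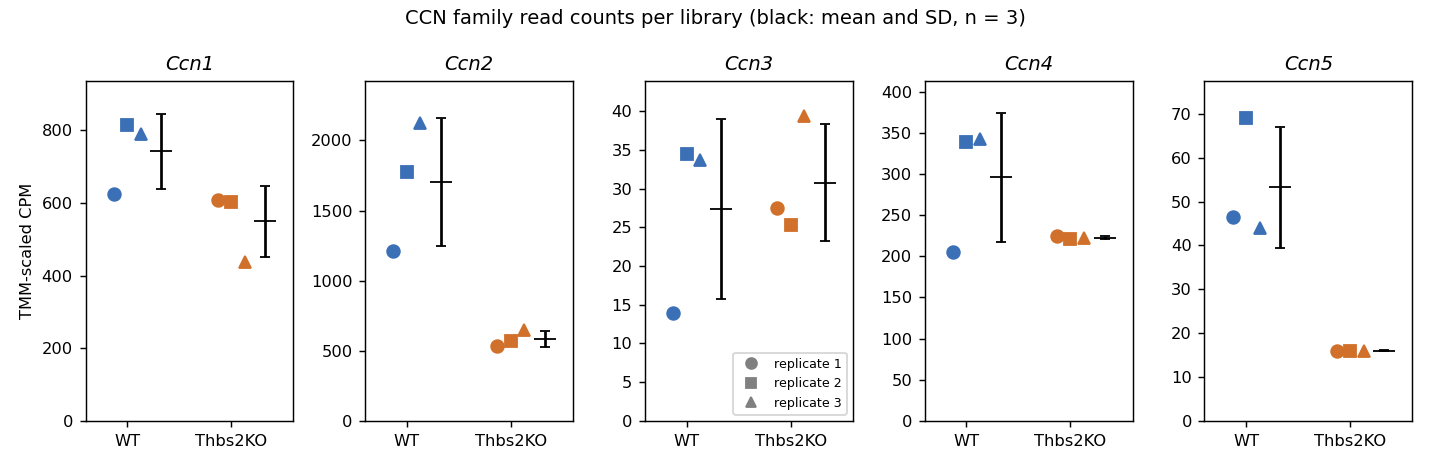
TMM-scaled CPM of each CCN gene in the 3 WT and 3 Thbs2KO libraries, on linear axes that start at 0 and differ between panels, with the mean and SD in black. Ccn2 and Ccn5 separate the genotypes widely, Ccn1 narrowly, and in Ccn3 and Ccn4 WT replicate 1 lies below every Thbs2KO library.

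Across the family, the log2 fold change was below 0 in 4 of 5 members and its median was -0.44, where all tested genes had a median of -0.004. In 3 of 5 the Thbs2KO libraries were all below the WT libraries, which held for 10.3% of all tested genes, while 9.37% had all Thbs2KO libraries above. The edgeR fit across all genes called 1.09% of them at an adjusted p below 0.05 in either direction, with 0.552% higher and 0.537% lower, Ccn2 and Ccn5 among the latter. Since the family was chosen on this contrast, nothing is read from those counts. With each library left out in turn, the log2 fold change of Ccn2 lay between -1.73 and -1.35, and Ccn2 was among the called genes only without WT replicate 1. That of Ccn5 lay between -1.86 and -1.49, and Ccn5 was not among the called genes without Thbs2KO replicate 1 or 2. With Thbs2KO replicates 1 and 2 summed to 1 library, the values were -1.50 for Ccn2 and -1.74 for Ccn5, and neither was called. With WT replicate 1 and Thbs2KO replicate 3 both left out, the values of all 5 members were below 0, Ccn3 included at -0.37.

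**Figure D3:**
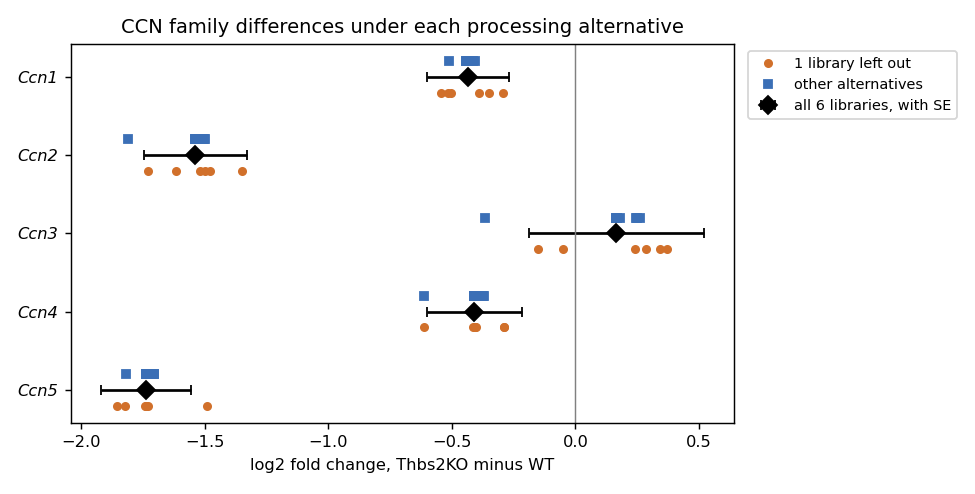
Log2 fold change of each CCN gene (x axis, Thbs2KO minus WT) from the fit with all 6 libraries (black, with its standard error), with 1 library left out (orange, below) and under the other alternatives (blue, above). Ccn1, Ccn2, Ccn4 and Ccn5 stay below 0 throughout, while Ccn3 falls on either side.

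Levels of different genes were set side by side per kilobase of exon. In WT the order was Ccn2, Ccn1, Ccn4, Ccn5 and Ccn3 in all 3 libraries. Ccn2 stood at 595.8 ± 160.0 CPM per kb, the 53rd highest of 13167 tested genes with a known length, and Ccn1 at 368.1 ± 51.1 CPM per kb, the 97th. Ccn4 followed at 53.2 ± 14.1, Ccn5 at 27.7 ± 7.16 and Ccn3 at 9.55 ± 4.05 CPM per kb (SD, n = 3). No pair of neighbours in this order overlapped in range in WT, although 2 pairs came close. The lowest Ccn4 value was 36.9 and the highest Ccn5 value 35.9 CPM per kb, and the lowest Ccn2 value was 424.6 and the highest Ccn1 value 403.7 CPM per kb.

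In Thbs2KO the top of the order changed. Ccn1 measured 301.9, 298.2 and 216.4 CPM per kb and Ccn2 187.8, 199.8 and 227.3 CPM per kb in replicates 1, 2 and 3. Ccn1 thus led in replicates 1 and 2, Ccn2 led narrowly in replicate 3, and the ranges overlapped. Ccn4 came next at 40.04 ± 0.27 CPM per kb. At the bottom, Ccn3 at 10.7 ± 2.63 and Ccn5 at 8.29 ± 0.056 CPM per kb had traded places in all 3 libraries, though with the length of the longest transcript in place of all exons Ccn5 kept its place above Ccn3 in Thbs2KO replicate 2. Among all ranked genes, Ccn5 stood 1663rd in WT and 4842nd in Thbs2KO.

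**Figure D4:**
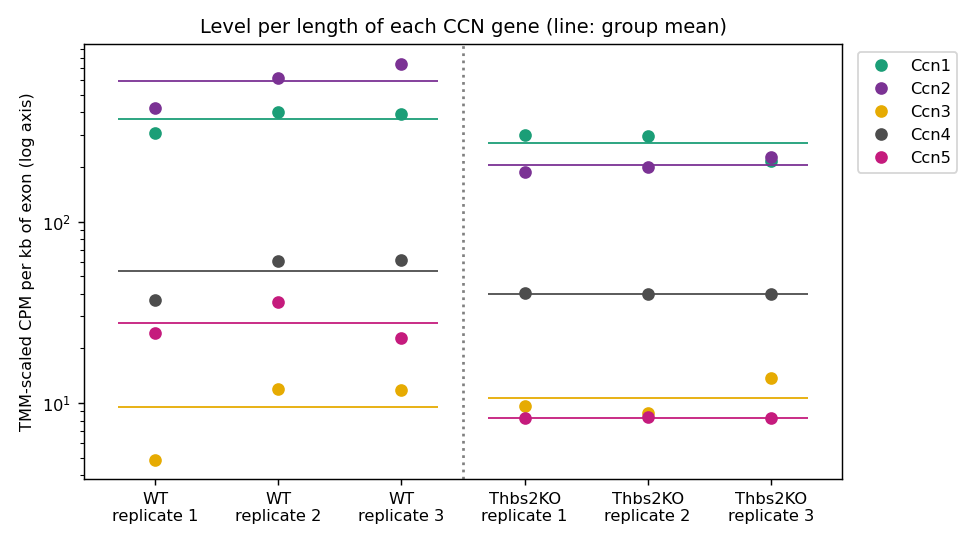
TMM-scaled CPM per kilobase of exon (log axis) of the 5 CCN genes in each library, with the group mean as a line. Ccn2 is the highest in all WT libraries and lies below or close to Ccn1 in Thbs2KO, where Ccn5 lies below Ccn3.

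The summed level of the 5 members was 1054 ± 225 CPM per kb in WT and 536.2 ± 26.7 CPM per kb in Thbs2KO, and the ranges, 800.0 to 1229 and 505.7 to 555.0, did not overlap. Ccn2 made up 56.1% ± 3.8 of that sum in WT and 38.4% ± 5.73 in Thbs2KO. Ccn1 made up 35.4% ± 3.44 and 50.5% ± 6.74. Ccn4 made up 5.0% ± 0.38 and 7.48% ± 0.38, a larger share in Thbs2KO at a level no higher. These shares describe transcripts per length, not protein.

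Ratios between members within a library do not depend on the scaling between libraries. The log2 ratio of Ccn1 to Ccn2 per length was -0.46, -0.62 and -0.92 in WT and 0.68, 0.58 and -0.07 in Thbs2KO. Every Thbs2KO library was above every WT library, with a difference of 1.06 between the means. The log2 ratio of Ccn2 to Ccn4 varied less within groups: WT libraries had 3.52, 3.35 and 3.59, and Thbs2KO libraries 2.22, 2.33 and 2.51, a shift of -1.14 with SDs of 0.12 and 0.15. By contrast the log2 ratio of Ccn2 to Ccn5, the members with the largest differences, was 4.13, 4.11 and 5.02 in WT and 4.50, 4.58 and 4.79 in Thbs2KO, and the groups overlapped. The log2 ratio of Ccn1 to Ccn4 overlapped as well, with means of 2.82 and 2.75. Of the 10 pairs, those that overlapped between genotypes were Ccn1 with Ccn3, Ccn1 with Ccn4 and Ccn2 with Ccn5.

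Within the WT group, replicate 1 was below the group mean in all 5 members, with log2 deviations of -0.24 for Ccn1, -0.45 for Ccn2, -0.85 for Ccn3, -0.49 for Ccn4 and -0.16 for Ccn5. It was the lowest WT library for every member except Ccn5, whose lowest was replicate 3. Summed over their list, the pericyte and smooth muscle markers were also lowest in WT replicate 1, at 111.4 CPM. Single markers differed: of the 6 libraries, Des was lowest there, at 11.5 CPM, while Notch3 was highest there, at 9.51 CPM. The part of these markers in the CCN values was not tested.

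The genes with the most similar profiles were sought among 10147 genes, by the root mean square difference between centred log2 CPM profiles over the 6 libraries. For Ccn2 they included Parm1, Slc6a17 and Mmp17 (a membrane-anchored matrix metalloproteinase), at 0.17 to 0.21. Ccn5 came 23rd in that order. For Ccn5 they were Fgf2 (basic fibroblast growth factor), Vdr (the vitamin D receptor), Rnaset2b and Sfxn2, at 0.11 to 0.26, and Ccn2 came 10th. The genes named for Ccn2 and Ccn5 had log2 fold changes from -1.66 to -1.15.

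For Ccn1 the nearest included Ndufaf2 (an assembly factor of respiratory complex I), Tm4sf1 and Fam174c, at 0.047 to 0.060. For Ccn4 they were Nfil3, Tmem47, Inpp5a and Sdc4, at 0.050 to 0.063. Sdc4 encodes syndecan-4, a heparan sulfate proteoglycan and a co-receptor for CCN proteins. For Ccn3, the member with the widest spread, they were Nuak1, Herc3, Itga7 and Neb, at 0.13 to 0.18. Each measure of likeness rests on 6 libraries, of which Thbs2KO replicates 1 and 2 are nearly alike, and it includes the difference between the genotypes. With profiles centred within each genotype, 0 of the 4 nearest genes were retained for Ccn1, Ccn2 and Ccn5, 1 of 4 for Ccn3 and 3 of 4 for Ccn4.

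Genes around the family were taken from 6 lists, and the fit across all genes was read for each. As the background for their counts, 7.56% of all tested genes were lower and 5.72% higher at an unadjusted p below 0.05 by edgeR, and 50.9% had a log2 fold change below 0. None of the 27 tested binding partners and receptors of CCN proteins, integrins, syndecans, LRP receptors and bound growth factors among them, passed the test over all genes by edgeR. DESeq2 called 2 lower and limma-voom 0, and before adjustment 1 was higher and 4 were lower by edgeR at 0.05. Their median log2 fold change was -0.04. The smallest p-values were those of Vegfa, the angiogenic factor that CCN2 binds, and Itga5, the alpha subunit of the fibronectin receptor. Vegfa measured 332.5 ± 53.9 CPM in WT libraries against 223.6 ± 34.4 CPM in Thbs2KO libraries, and Itga5 906.8 ± 291.7 against 524.6 ± 86.2 CPM (adjusted p = 0.188 for Vegfa and 0.253 for Itga5, by edgeR with Benjamini-Hochberg adjustment).

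Among known regulators of CCN genes, 1 of 28 members of the Hippo, TEAD and SRF pathways passed the edgeR test over all genes. DESeq2 called 4 of them lower, where it called 398 of all 13590 tested genes lower. Vgll3, a vestigial-like co-factor of TEAD proteins, stood at 353.3 ± 27.8 CPM in WT and fell by 0.80 on the log2 scale, with a standard error of 0.099, to 202.3 ± 18.5 CPM (adjusted p = 0.0217 by edgeR with Benjamini-Hochberg adjustment). Vgll3 lost its call when WT replicate 2 or 3 or Thbs2KO replicate 1 or 2 was left out, with a highest adjusted p of 0.14. Amotl2, an angiomotin that holds YAP in the cytoplasm and is itself a YAP target, measured 375.6 ± 49.5 and 243.2 ± 13.0 CPM without passing the test (edgeR, Benjamini-Hochberg adjusted p = 0.066); it passed without WT replicate 1 (adjusted p = 0.0152). The median of the list was -0.04, and 14 of 28 log2 fold changes were negative. Before adjustment, edgeR had 9 of the 28 lower and 0 higher at 0.05.

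Among 19 tested YAP and TEAD targets other than Ccn1 and Ccn2, 0 passed the edgeR test over all genes, while DESeq2 called 1 lower and limma-voom 0. Before adjustment, 9 were lower and 0 higher by edgeR at 0.05. Their log2 fold changes were negative in 16, with a median of -0.32, and ran from -0.78 to 0.32. Ccn2, at -1.54, was outside that range and Ccn1, at -0.44, inside it. After Amotl2, the smallest p was that of Lats2, a kinase that restrains YAP, with WT libraries at 125.5 ± 11.3 CPM and Thbs2KO libraries at 100.9 ± 5.07 CPM (edgeR, Benjamini-Hochberg adjusted p = 0.179).

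The list of TGF-beta ligands, latent binding proteins, receptors and SMADs had 18 tested genes, of which 2 passed, both of the latent binding protein family. No ligand, receptor or SMAD passed the edgeR test. DESeq2 also called the receptors Acvrl1 and Eng lower and Tgfbr1 and Tgfbr2 higher, and limma-voom called Acvrl1 lower (these receptors are named after their values were seen). Before adjustment, 7 of the 18 were lower and 3 higher at 0.05. Ltbp2, a protein of elastic fibres related to the latent TGF-beta binding proteins, fell from 1040 ± 254 to 384.9 ± 54.3 CPM, or by 1.43 on the log2 scale. Ltbp1, which stores latent TGF-beta in the matrix, went the other way, rising from 105.6 ± 32.4 to 334.7 ± 58.0 CPM, or by 1.66 as a log2 fold change (adjusted p = 0.0388, and 0.0301 for Ltbp2, by edgeR with Benjamini-Hochberg adjustment). The median of the list was -0.002. Both lost the call without WT replicate 3 or any of Thbs2KO replicates 1, 2 and 3, with highest adjusted p of 0.164 and 0.174.

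Of 20 TGF-beta targets, edgeR called 2 lower and 0 higher, and 16 log2 fold changes were negative with a median of -0.21. Before adjustment, 8 were lower and 1 higher by edgeR at 0.05. DESeq2 called 7 lower and 1 higher, and without Thbs2KO replicate 3 edgeR called 0 lower and 1 higher, Tgfbi, a matrix protein induced by TGF-beta that is named here after its values were seen. Lmcd1, a LIM-domain co-regulator of transcription, stood at 39.1 ± 5.23 CPM in WT and fell by 1.07 on the log2 scale to 18.6 ± 2.37 CPM (adjusted p = 0.0266 by edgeR with Benjamini-Hochberg adjustment), and the other was again Ltbp2. Lmcd1 kept its call in 1 of 6 fits with a library left out, without WT replicate 1; its highest adjusted p was 0.132. Among 11 tested Wnt and beta-catenin targets, 0 passed by edgeR, DESeq2 or limma-voom, and before adjustment 1 was higher by edgeR at 0.05 and 0 lower. Axin2, a feedback inhibitor of Wnt signalling, measured 1.28 ± 0.21 CPM in WT libraries against 2.91 ± 1.93 CPM in Thbs2KO libraries, and Cd44, the hyaluronan receptor, 556.5 ± 26.6 against 443.9 ± 92.5 CPM (adjusted p = 0.373 for Axin2 and 0.453 for Cd44, by edgeR with Benjamini-Hochberg adjustment).

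**Figure D5:**
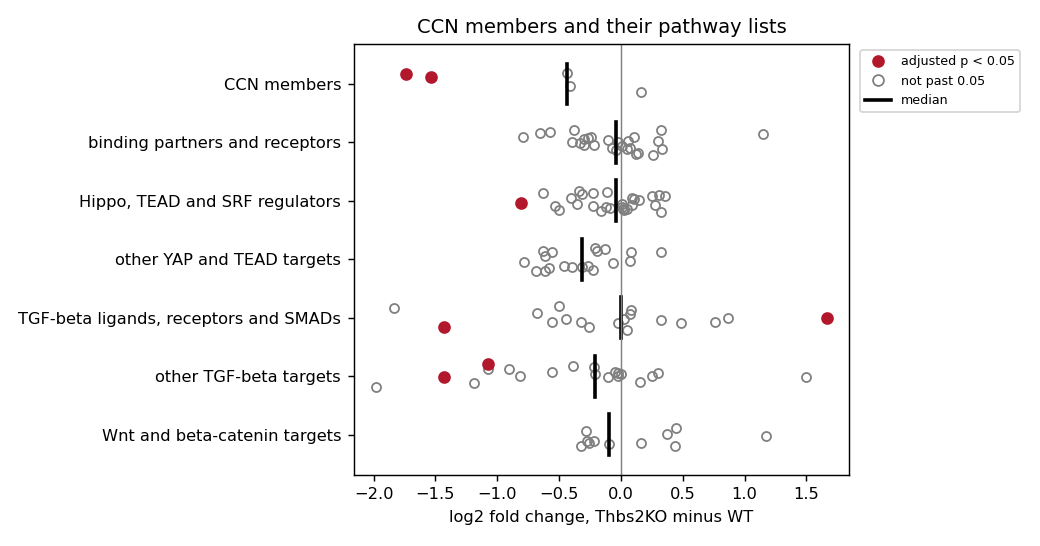
Log2 fold change (x axis, Thbs2KO minus WT) of each CCN gene and of each tested gene of the 6 lists, filled where the edgeR adjusted p was below 0.05, with the median as a black bar; vertical position within a row has no meaning. Ccn2 and Ccn5 lie further left than every YAP and TEAD target, and the medians of the lists lie between -0.32 and -0.002.

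The promoter of Ccn1 is shown because TEAD factors act there in textbook accounts and this is the only member with an entry in the promoter table used. The 250 bases before the RefSeq start of Ccn1 (GRCm38.p6, chr3:145649986-145650235, minus strand) are given with motif matches in capitals.
Ccn1: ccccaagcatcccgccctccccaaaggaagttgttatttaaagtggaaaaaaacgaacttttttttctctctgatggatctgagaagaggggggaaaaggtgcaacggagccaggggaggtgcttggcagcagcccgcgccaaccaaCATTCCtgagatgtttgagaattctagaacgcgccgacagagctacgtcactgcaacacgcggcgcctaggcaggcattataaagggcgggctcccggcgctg
On both strands, the window was searched for the TEAD motif CATTCC, the AP-1 motif TGANTCA, the TCF/LEF motif ATCAAAG and the CArG box of SRF. It held 1 match, CATTCC from -103 to -98 relative to the start, overlapping no other motif. Of 32851 promoters searched in the same way, 12.6% held CATTCC on either strand, 6.75% TGANTCA, 3.21% ATCAAAG and 1.47% a CArG box. A match is a string of letters, not a measured site.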

How the data were processed

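The authors deposited expected counts (unscaled estimates of reads from each gene) for 55401 genes in 6 libraries (TruSeq RNA kit, per the labels' protocols). The submitters' processing notes name mm10 as the build and, as tools, RSEM, Trimmomatic 0.39 and STAR 2.7.3a, and no annotation release. Values were rounded (3.8% to 3.88% per library were not whole). Genes passing filterByExpr (13590) were scaled with TMM and tested by the quasi-likelihood method of edgeR 4.0.16 in R 4.3.3 (robust, genotype as the only term), with Benjamini-Hochberg adjustment over all genes and a threshold of 0.05; standard errors derive from the F statistic. Alternatives were limma-voom (limma 3.58.1), DESeq2 1.42.0, scaling by RLE or the upper quartile, other filters, no robust estimation, a replicate block and libraries left out or summed. The steps were tested on simulated counts. Gene models come from GENCODE M21 (GRCm38), which held 98.1% of the table's versioned identifiers, and lengths are the union of exons. Coding bases were aligned globally. The promoter is from RefSeq; of the 5 members, only Ccn1 matched the promoter table. Members, lists, tests and alternatives were chosen with earlier results of these data known. Of each list, up to 4 called genes, smallest p first, are named, or the 2 of smallest p where fewer than 2 were called. For each member the 4 genes with the nearest profile are named, among genes of at least 5 CPM (log2 CPM with a prior count of 2) whose symbol is not a predicted name or a pseudogene; some of these genes are not reported here.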

Additional observations from a re-analysis of the deposited data

How the results depend on the processing

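The log2 fold changes of Ccn1, Ccn2, Ccn4 and Ccn5 were negative in all 16 alternatives, from -0.55 to -0.29, -1.81 to -1.35, -0.61 to -0.29 and -1.86 to -1.49. Ccn3 ran from -0.37 to 0.37 and was negative in 3 of 16. Ccn2 was called in 9 of 16 and Ccn5 in 12 of 16. Genes called, 148 with all libraries, numbered 699 with DESeq2 (301 higher, 398 lower), 245 with no filter, 30 with the replicate block, 40 with Thbs2KO replicates 1 and 2 summed, and 1519 with WT replicate 1 and Thbs2KO replicate 3 both left out. They numbered 38 to 397 with each library left out in turn (397, 79 and 49 without WT replicates 1, 2 and 3, and 38, 45 and 110 without Thbs2KO replicates 1, 2 and 3).

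CCN members called numbered 0 with the replicate block, where 30 of 13590 genes were called, and 0 with the sum, where 40 of 13980 were. They numbered 5 with WT replicate 1 and Thbs2KO replicate 3 both left out, where 1519 of 13617 genes were called. With each library left out in turn they numbered 0 to 3, where 38 to 397 genes were called. Since the family was chosen on this contrast, nothing is read from these counts. Whether the replicate numbers pair the samples is not known, and the deposited column names use the same numbers in both genotypes. Deviations of same-numbered libraries correlated at -0.29, 0.17 and -0.33, and those of WT replicate 1 and Thbs2KO replicate 3 at 0.396. These values cannot decide it, because deviations within a genotype cancel out and those libraries stood apart. With the replicate block Ccn2 was at -1.51 and Ccn5 at -1.71 on the log2 scale, and Thbs2 at -2.86 (edgeR, Benjamini-Hochberg adjusted p = 0.0784).

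Called list genes are given in the order binding partners, Hippo regulators, YAP targets, TGF-beta ligands, TGF-beta targets and Wnt targets. Amotl2, Fn1, Lats2, Ltbp2, Smad7, Tgfb1 and Tgfb2 each stand in 2 lists. With DESeq2 the counts were 2, 4, 1, 6, 8 and 0, where 699 of all 13590 tested genes were called. With both libraries left out they were 7, 11, 7, 9, 9 and 1, where 1519 of 13617 tested genes were called. With each left out in turn the counts ran from 0 to 2, 0 to 6, 0 to 3, 0 to 3, 0 to 7 and 0 to 1, where 38 to 397 genes were called. With no filter, where 245 of 22365 genes were called, the counts were 2 for Hippo regulators, 1 for YAP targets and 4 for TGF-beta ligands. With the replicate block or the sum they were 0 for Hippo regulators, TGF-beta ligands and TGF-beta targets. The median of the Wnt targets was 0.12 with limma-voom, 0.15 with the replicate block and -0.16 to 0.16 with each library left out. That of the Hippo regulators was 0.00047 with both left out and -0.0593 to -0.00649 with each left out, that of the binding partners -0.128 to 0.00465 and that of the TGF-beta ligands -0.0894 to 0.0243. The log2 ratio of Ccn2 to Ccn1 differed by -1.40 with both left out. By the longest transcript, Thbs2KO levels were 235.5 for Ccn2, 43.7 for Ccn4 and 9.28 CPM per kb for Ccn5. The cause of these shifts was not tested.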

Other observations

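Ccn4 and Ccn5 were almost equal across the 3 Thbs2KO libraries, with coefficients of variation of 0.674% and 0.67%. Among 10473 genes of at least 5 CPM, 0.659% and 0.64% had a Thbs2KO spread as small or smaller, and the median gene had 9.24%. Counting error alone would give about 1.47% for Ccn4 and 5.50% for Ccn5 at their depths, so both values are below it. In WT the same genes varied by 26.4% and 25.9%, more than 89.7% and 89.3% of genes.

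With the difference between genotypes removed, by centring profiles within each genotype, Ccn4 was the 32nd nearest of 10147 genes to Ccn2, at a root mean square difference of 0.11 on the log2 scale. Ccn3 was the 3443rd, at 0.25, Ccn1 the 4717th, at 0.27, and Ccn5 the 6568th, at 0.31. The order within the family thus differed from that over all 6 libraries, where Ccn5 was nearest to Ccn2. Both Ccn2 and Ccn4 were low in WT replicate 1, at -0.45 and -0.49 from the WT mean on the log2 scale. In Thbs2KO, deviations of Ccn2 ran from -0.12 to 0.15, while those of Ccn4 ran only from -0.008 to 0.011.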
